A study of Phaseolus vulgaris with 24 samples.

Results

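Roots of unsalted plants of the common bean (Phaseolus vulgaris) genotypes Ispir and TR43477 were compared by RNA sequencing, 3 libraries against 3, which is 6 of the 24 libraries of the series. The libraries were those labelled as control roots of either genotype, with plants as biological replicates, and every gene with a count in them was tested. The study describes Ispir as salt-tolerant and TR43477 as salt-susceptible. Plants were raised on nutrient solution and moved to hydroponics, where controls received no NaCl and treated plants had NaCl raised stepwise to 125 mM and held there for 3 days. According to the study's methods the genotypes reached expanded foliage at different ages after sowing, so that age cannot be told apart from genotype here. Each genotype is a single line, and a difference between them is a difference between these lines and not between tolerant and susceptible beans in general. Salt-treated roots and control leaves, 6 libraries each, were used only to see how genes that differed in control roots behaved in libraries that the comparison had not used.

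Roots take up water and mineral ions through transporters in the plasma membranes of their outer cells, and they load part of these ions into the xylem for the shoot. Vacuolar exchangers and efflux carriers keep sodium and metals at tolerable levels, while pectin-modifying enzymes and structural proteins set how the wall of a growing root cell yields. Differences that exist between varieties before any salt is given are the baseline against which a salt response is measured.

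The 6 libraries held 12743363 to 16742603 counts on genes, and between 21927 and 22297 genes had at least 1 count. The mean totals were 13376200 in Ispir and 14833900 in TR43477 (exact permutation test, two-sided, p = 0.3, where 0.1 is the smallest p that 3 against 3 allows). The 10 most abundant genes took 4.63% to 5.78% of the counts in Ispir and 5.98% to 7.20% in TR43477, ranges that did not overlap (exact permutation p = 0.1). A limit of 3 counts corresponded to 0.179 to 0.235 CPM, the unit of all levels given here, which scales counts to a common library total, and this limit covers counting error only. Log2 CPM values correlated across genes at 0.963 to 0.987 among Ispir libraries, at 0.921 to 0.960 among TR43477 libraries and at 0.860 to 0.900 between genotypes. TR43477 replicate 3 was the least similar to the other libraries of its genotype.

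Of 23626 genes tested, 489 differed between the genotypes at an adjusted p under 0.01 and an absolute log2 fold change over 1 (edgeR quasi-likelihood test with Benjamini-Hochberg adjustment), which was 2.07% of the genes. Of these, 234 genes were higher in Ispir (0.99%) and 255 were lower in Ispir (1.08%). A gene past both thresholds is referred to as called, and a positive log2 fold change means a higher level in Ispir throughout. The median log2 fold change over all genes tested was -0.01. For 32.8% of all genes, every library of 1 genotype lay above every library of the other. Called genes had a median absolute log2 fold change of 2.72 where Ispir was higher and of 2.40 where it was lower, against 0.35 over all genes. In bulk tissue, fewer cells of a type and less RNA per cell cannot be told apart.

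The number of called genes depended on single libraries, although each fit without 1 of them also had fewer libraries to test with. It fell to 60, 52 and 136 without Ispir replicate 1, 2 and 3, and to 256 and 262 without TR43477 replicate 1 and 2. Without TR43477 replicate 3 it was 663, of which 434 were among the 489. At the same thresholds DESeq2 called 1552 genes and edgeR's likelihood ratio test 1833, and each of these sets held all 489.

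**Figure D1:**
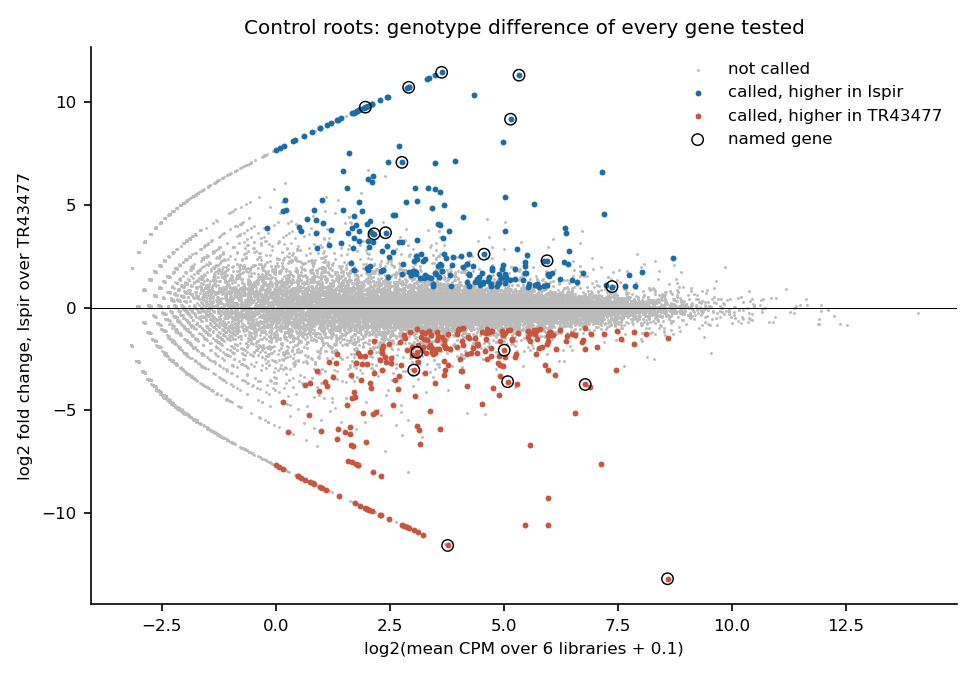
Log2 fold change (Ispir over TR43477) of each of the 23626 genes tested in control roots against the log2 of its mean CPM over the 6 libraries plus 0.1. Blue points are the 234 genes called higher in Ispir, red points the 255 called higher in TR43477, grey points the others and circles the named genes. The curved edges are genes with no count in 1 genotype.

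Called genes were spread unevenly over abundance. When the genes were divided by abundance into 4 bins of equal size, the lowest bin, up to 2.24 CPM on average, held 50 called genes (0.846%). The next bin, up to 12.7 CPM, held 228 called genes (3.86%). In the most abundant bin 89 genes were called (1.51%), with a median absolute log2 fold change of 1.61.

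Many of the called genes were at or near 0 in 1 genotype. Among genes higher in Ispir, 53 of 234 (22.6%) had 3 counts or fewer in each TR43477 control root library, and 37 of them had none. Among genes lower in Ispir, 55 of 255 (21.6%) had 3 counts or fewer in each Ispir control root library, and 32 had none. In the genotype that counted them, these genes had median levels of 6.43 and 6.44 CPM, and mean levels ranged up to 80.4 CPM in Ispir and 770 CPM in TR43477. The floor extended to all 12 libraries of the genotype, leaf and salt libraries included, for 35 of the 53 and 31 of the 55. Each of the others exceeded 3 counts in at least 1 further library of that genotype. Reads of both lines were aligned to 1 reference genome. For genes at the floor in all 12 libraries, an absent or diverged gene and an untranscribed one therefore cannot be told apart. How far the others diverge from the reference was not tested.

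The study lists 376 of the genes in the tables, mostly as ion transporters, primary metabolism, photosynthesis and salt-responsive genes, and 10 of them, measured by qRT-PCR, without an annotation. Of the 376 genes, 364 were tested. Of these, 9 were called higher and 5 lower in Ispir, which was 3.85% of the tested members against 2.07% of all genes, with a median log2 fold change of -0.08. The salt-responsive root genes gave 10 of these calls from 116 tested (8.62%). The study chose those genes on libraries that include these control roots, so the list is not independent evidence. The 14 genes are described by role in the following paragraphs, each with its level in every library.

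**Figure D2:**
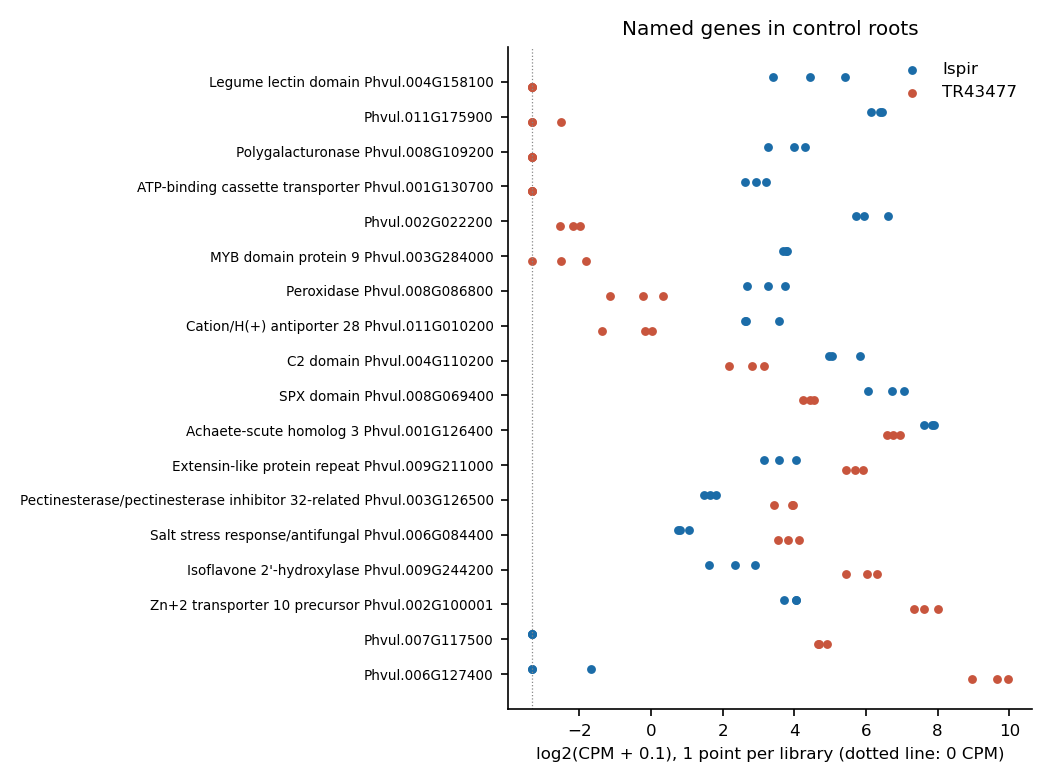
Level of each named gene in the 6 control root libraries, as log2(CPM + 0.1), with 1 point per library, Ispir in blue and TR43477 in red. Genes are ordered by log2 fold change, the dotted line marks 0 CPM, and the points of the genotypes do not overlap for any gene shown.

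Among ion transporters, a zinc transporter was the only called gene of the study's 46 transporter genes (45 tested, 2.22% called). This share was close to the 2.07% of all genes. The gene annotated as Zn+2 transporter 10 precursor (Phvul.002G100001, chromosome 2, 19321798 to 19324224, minus strand, v2.1) carries a name used for proteins that import zinc and related metals. Its level was 16.3, 13.1 and 16.5 CPM in the 3 Ispir roots and 257, 196 and 162 CPM in the 3 TR43477 roots. Every TR43477 root was thus well above every Ispir root, and the log2 fold change was -3.74 ± 0.22 (SE, adjusted p = 0.00054). This call was kept in all 6 fits that left out 1 library, with adjusted p between 0.00031 and 0.0093.

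The same zinc transporter gene kept its difference in salt-treated roots, which are separate libraries. There it had 6.64, 6.18 and 8.27 CPM in Ispir against 224, 156 and 243 CPM in TR43477, a log2 fold change of -4.88 (adjusted p = 5.1e-05). In control leaves it had 0.928 to 1.55 CPM in either genotype and a log2 fold change of 0.10 (adjusted p = 0.92). The difference between root and leaf, tested as an interaction in which the same control roots take part, was -3.80 ± 0.35 on the log2 scale (adjusted p = 0.0010). The second zinc transporter low in Ispir, Zn+2 transporter 11 precursor (Phvul.L007443), had 0.0733, 0.302 and 0.0715 CPM against 2.35, 2.14 and 1.49 CPM. Its log2 fold change of -3.68 did not pass (adjusted p = 0.015). The other 8 of the 10 zinc transport genes were not called either, and the median of the class was -0.04.

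None of the 14 potassium, 10 tested copper, 6 sodium, 3 magnesium or 2 calcium transport genes was called in control roots. The share over all genes was 2.07%, so that 0 calls in classes this small do not show that the lines are alike. The 6 sodium transport genes lay between -0.42 and 0.45 on the log2 scale, with a median log2 fold change of 0.12 and no unadjusted p under 0.05. The potassium genes had a median log2 fold change of -0.11 and the copper genes one of -0.60. A predicted K+/H+ antiporter (Phvul.001G246500), a type of exchanger that moves potassium against protons, had 1.10, 1.81 and 1.07 CPM in Ispir and 0, 0 and 0.071 CPM in TR43477 (adjusted p = 0.014). A Mg+2 transporter 7 gene (Phvul.007G090901) had 1.61, 1.13 and 1.72 CPM in Ispir and no count in TR43477 (adjusted p = 0.013). For either gene the groups did not overlap, but the adjusted p missed the threshold. Other uncalled genes were lower in Ispir. The calcium transport gene Phvul.002G011400 had a log2 fold change of -0.88, with an adjusted p under 0.05. The copper transport gene Phvul.004G158700 had one of -4.72, and 0 copper genes had an adjusted p under 0.05. Of the 45 tested genes of the transporter list, 20 had a positive log2 fold change.

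Outside that list, 2 of the 17 transport genes among the salt-responsive root genes were called (11.8%, against 2.07% of all genes). Both were higher in Ispir, and the study chose these genes on libraries that include these control roots. Of the 8 transport genes among the salt-responsive leaf genes, 0 were called. With the transporter list included, 3 of 68 tested transport genes were called (4.41%). An ATP-binding cassette transporter gene (Phvul.001G130700, chromosome 1, 36235622 to 36241937, plus strand), from a family of pumps driven by ATP, had 103, 81 and 128 counts in Ispir, or 7.55, 6.11 and 9.16 CPM. In TR43477 it had no count in any control root, which makes it at least 36.6-fold higher in Ispir when TR43477 is set to the floor of 3 counts per library (adjusted p = 0.0021). The adjusted p was 0.020, 0.020 and 0.012 without Ispir replicate 1, 2 and 3. In salt-treated roots Ispir had 0.332 to 0.580 CPM and TR43477 again none, and the genotypes stood in the same order without a call (adjusted p = 0.017). In control leaves Ispir had 0.387 to 1.32 CPM, and 1 of the 3 TR43477 libraries counted the gene, at 0.0844 CPM.

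The gene for cation/H(+) antiporter 28 (Phvul.011G010200, chromosome 11, 769455 to 774026, minus strand) belongs to the exchangers of monovalent cations against protons. It had 6.16, 6.11 and 11.9 CPM in Ispir and 0.910, 0.794 and 0.284 CPM in TR43477. All Ispir roots were above all TR43477 roots, with a log2 fold change of 3.58 ± 0.48 (SE, adjusted p = 0.0077). The call was kept only without TR43477 replicate 3 (adjusted p = 0.0076). It was lost without Ispir replicate 1, 2 and 3 (0.031, 0.037 and 0.024) and without TR43477 replicate 1 and 2 (0.021 and 0.027). In salt-treated roots no library exceeded 0.943 CPM and the genotypes overlapped, and no control leaf counted the gene.

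Primary metabolism gave no called gene. All 64 genes that the study places on carbon, sucrose, amino acid and related steps were tested. Of these, 0 were called, against 2.07% of all genes, and the median log2 fold change was 0.03. An unadjusted p under 0.05 was found for 15 of the 64 and for 6073 of all 23626 genes tested. With an adjusted p under 0.05, which is above the threshold used, stood 3 of the 64. A gene of the asparagine step (Phvul.006G069300) had 486, 480 and 481 CPM in Ispir and 118, 234 and 209 CPM in TR43477, a log2 fold change of 1.37 (adjusted p = 0.023). A gene of the threonine step (Phvul.001G266600) had 315, 343 and 648 CPM against 106, 134 and 64.6 CPM (adjusted p = 0.020). A gene of the step from fructose 6-phosphate to phosphoenolpyruvate (Phvul.009G006600) had 3.37, 4.53 and 2.72 CPM against 1.29, 1.16 and 1.49 CPM (adjusted p = 0.035). In each of these 3 genes every Ispir root was above every TR43477 root.

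Photosynthesis genes served as markers of green tissue in the roots. The 50 antenna, photosystem and Rubisco genes summed to 299, 342 and 314 CPM in the Ispir control roots and to 243, 241 and 727 CPM in the TR43477 control roots (exact permutation test, two-sided, p = 1.0). In control leaves the sum was 24790 to 99869 CPM. TR43477 replicate 3 was thus the root library with the highest sum, and 8 to 15 of the 50 genes had 3 counts or fewer in a given control root. Of 46 marker genes tested, 0 were called, against 2.07% of all genes, and the median log2 fold change was 0.02. An unadjusted p under 0.05 was found for 6 of the 46 and for 6073 of all 23626 genes tested. Of the 46, 24 had a positive log2 fold change. An adjusted p under 0.05 was reached by 4, which were 3 antenna genes, not all given here, and 1 photosystem II gene. Lhcb5 (Phvul.004G128200), a minor antenna protein of photosystem II, had 7.03, 6.11 and 5.65 CPM in Ispir and 23.9, 21.3 and 106 CPM in TR43477 (adjusted p = 0.039). Lhcb1 (Phvul.002G196400), a major antenna protein, had 15.3, 16.3 and 14.4 CPM against 34.7, 25.7 and 62.4 CPM (adjusted p = 0.041). PsbO (Phvul.002G024000), which stabilises the water-splitting centre, stood the other way, with 4.32, 5.06 and 3.65 CPM against 1.75, 1.53 and 1.84 CPM (adjusted p = 0.023). The part of green-tissue RNA in these values was not tested.

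**Figure D3:**
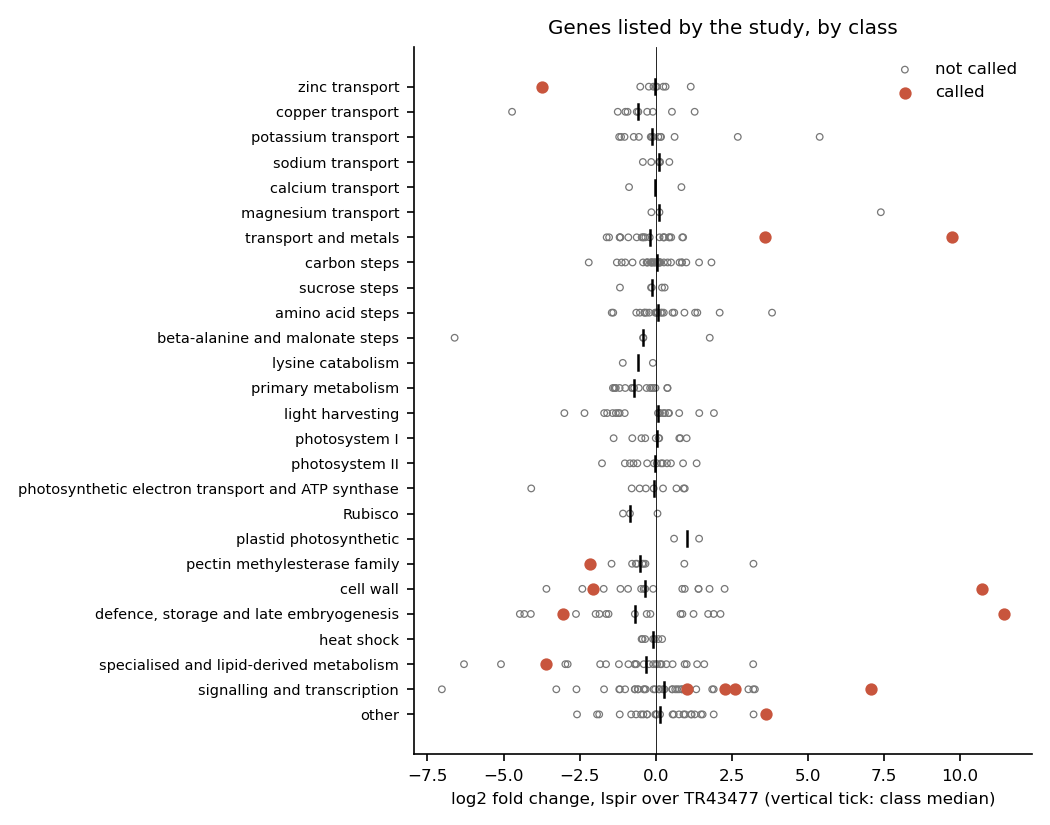
Log2 fold change (Ispir over TR43477) in control roots of the tested genes that the study lists, 1 point per gene, by class, with a vertical tick at each class median. Filled points are the 14 called genes, and a gene in several lists is drawn once under its first class. Genes listed only for qRT-PCR, its reference gene and the alcohol dehydrogenase gene are not drawn.

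Cell wall genes were called in either direction. Of 27 such genes, 1 was higher and 2 were lower in Ispir (11.1%, against 2.07% of all genes), and their median log2 fold change was -0.40. Of the called genes, 1 is among the salt-responsive root genes, which the study chose on libraries that include these control roots. Pectin is demethylated by pectinesterases, whose activity is held back by inhibitor proteins, and is cut by polygalacturonases. A gene related to pectinesterase/pectinesterase inhibitor 32 (Phvul.003G126500, chromosome 3, 31455869 to 31459435, plus strand) had 2.71, 3.02 and 3.43 CPM in Ispir and 10.7, 15.2 and 15.5 CPM in TR43477. It was lower in every Ispir root, with a log2 fold change of -2.17 ± 0.22 (SE, adjusted p = 0.0028). The adjusted p was 0.023, 0.029 and 0.013 without Ispir replicate 1, 2 and 3 and 0.011 without TR43477 replicate 2. In salt-treated roots it was called in the same direction (log2 fold change -1.54, adjusted p = 0.0065), and in control leaves the groups were apart in that direction with a log2 fold change of -3.58 that was not called (adjusted p = 0.014).

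A polygalacturonase gene (Phvul.008G109200, chromosome 8, 12298571 to 12300950, plus strand) had 266, 208 and 132 counts in Ispir, or 19.5, 15.7 and 9.44 CPM, and no count in TR43477 control roots. It was at least 71.6-fold higher in Ispir against the floor of 3 counts per library (adjusted p = 0.0029). Without Ispir replicate 1 and 2 the adjusted p was 0.017 and 0.029. Ispir had 16.6 to 20.8 CPM in salt-treated roots and 106 to 231 CPM in control leaves. TR43477 had no count in salt-treated roots, and of its control leaves only replicate 2 counted the gene, at 0.169 CPM. The gene was called in those comparisons as well (adjusted p = 9.9e-05 and 0.0050).

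The gene for an extensin-like protein repeat (Phvul.009G211000, chromosome 9, 31904849 to 31905766, minus strand) belongs to the structural glycoproteins of the wall. It had 11.8, 8.75 and 16.4 CPM in Ispir and 52.1, 43.7 and 59.7 CPM in TR43477, a log2 fold change of -2.07 ± 0.25 (SE, adjusted p = 0.0050). The call was lost without Ispir replicate 1 and 2 (0.037 and 0.027) and without TR43477 replicate 1 and 2 (0.019 and 0.012). The order of the genotypes was the opposite elsewhere. Salt-treated roots had 139 to 162 CPM in Ispir and 49.2 to 118 CPM in TR43477, and control leaves had 13.9 to 90.4 CPM in Ispir and 2.18 to 4.98 CPM in TR43477, without a call in either (adjusted p = 0.070 and 0.057).

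Among 19 tested genes of defence, storage and late embryogenesis, 1 was higher and 1 was lower in Ispir (10.5%, against 2.07% of all genes), and the median log2 fold change was -0.68. Both called genes are among the salt-responsive root genes, which the study chose on libraries that include these control roots. A gene with a legume lectin domain (Phvul.004G158100, chromosome 4, 46258583 to 46259432, minus strand), which binds sugars, had 143, 284 and 589 counts in Ispir, or 10.5, 21.4 and 42.1 CPM. It had no count in TR43477 control roots, which makes it at least 119-fold higher in Ispir against the floor (adjusted p = 0.0099). Ispir replicate 3 weighed most in this limit, which was 76.7-fold without it. Neither genotype counted it in salt-treated roots or control leaves. The call was lost in each of the 6 fits that left out 1 library, which also had fewer libraries to test with. Their adjusted p lay between 0.011 (without TR43477 replicate 3) and 0.064 (without Ispir replicate 2). The values between were 0.016 without Ispir replicate 1 or 3, 0.021 without TR43477 replicate 1 and 0.023 without TR43477 replicate 2.

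A gene annotated as salt stress response/antifungal (Phvul.006G084400, chromosome 6, 19600415 to 19606813, plus strand) carries a domain that occurs in cysteine-rich receptor-like kinases. It had 1.98, 1.66 and 1.57 CPM in Ispir and 11.5, 17.5 and 14.1 CPM in TR43477, and was lower in every Ispir root (log2 fold change -3.04 ± 0.23 SE, adjusted p = 0.0013). Without Ispir replicate 1 and 2 the adjusted p was 0.012 and 0.015. In salt-treated roots all 3 Ispir libraries were still below those of TR43477, which had 18.4 to 25.3 CPM, and the log2 fold change of -0.57 was not called (edgeR adjusted p = 0.12). Of the defence genes not called, a chitinase-related gene (Phvul.001G218600) had 21.5, 17.7 and 27.4 CPM in Ispir and 220, 67.5 and 122 CPM in TR43477 (adjusted p = 0.016). A harpin-induced protein-like gene (Phvul.001G194600) had 13.8, 9.43 and 4.36 CPM against 33.3, 47.8 and 27.2 CPM (adjusted p = 0.034). Not all genes of the class leaned this way. Over its 19 tested genes, every Ispir root was above every TR43477 root in 3 and below in 4. Over all genes the groups were apart in either direction for 32.8%. Among the 5 tested from the salt-responsive leaf genes 1 was above and 0 were below, and 1 gene had an adjusted p under 0.05.

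The 7 heat shock genes stayed within -0.46 and 0.21 on the log2 scale, with a median of -0.09. Of these, 0 were called, against 2.07% of all genes. An unadjusted p under 0.05 was found for 1 of the 7 and for 6073 of all 23626 genes tested.

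Of 26 tested genes of specialised and lipid-derived metabolism, 1 was called, lower in Ispir (3.85%, against 2.07% of all genes), and their median log2 fold change was -0.31. The called gene is among the salt-responsive root genes, which the study chose on libraries that include these control roots. It codes for isoflavone 2'-hydroxylase (Phvul.009G244200, chromosome 9, 36505837 to 36508926, minus strand), a cytochrome P450 on the route to the isoflavonoid defence compounds of legumes. It had 4.98, 2.94 and 7.44 CPM in Ispir and 65.2, 43.5 and 78.8 CPM in TR43477. The TR43477 roots were all above the Ispir roots, and the log2 fold change was -3.60 ± 0.38 (SE, adjusted p = 0.0032). Without Ispir replicate 1 and 2 and TR43477 replicate 1 the adjusted p was 0.028, 0.019 and 0.013. In salt-treated roots the genotypes overlapped, at 61.2 to 68.5 CPM in Ispir and 59.0 to 97.1 CPM in TR43477 (log2 fold change -0.30, adjusted p = 0.34). The change of the genotype difference with salt was 3.32 ± 0.43 on the log2 scale and was not called (adjusted p = 0.020). An O-methyltransferase gene (Phvul.008G247600) had 4.10, 2.11 and 5.65 CPM against 20.5, 25.6 and 42.4 CPM and lay just outside the threshold (adjusted p = 0.010).

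Of 39 genes of signalling and transcription, 4 were called (10.3%), all of them higher in Ispir, as were 0.99% of all genes, and the median log2 fold change was 0.29. All 4 are among the salt-responsive root genes, which the study chose on libraries that include these control roots. A gene with an SPX domain (Phvul.008G069400, chromosome 8, 6287716 to 6298686, minus strand), a domain of proteins that respond to phosphate status, had 105, 134 and 67.0 CPM in Ispir and 21.4, 23.1 and 18.7 CPM in TR43477. Its log2 fold change was 2.28 ± 0.26 (SE, adjusted p = 0.0042). The adjusted p was 0.027 and 0.019 without Ispir replicate 1 and 2, and 0.018 and 0.017 without TR43477 replicate 1 and 2. In salt-treated roots it had 16.5, 44.1 and 19.1 CPM in Ispir and 10.7, 14.5 and 17.2 CPM in TR43477, so that the groups overlapped, and the log2 fold change of 0.91 was not called (adjusted p = 0.15). In control leaves the groups overlapped, with a log2 fold change of -1.95 (adjusted p = 0.13), and the interaction of genotype and tissue was 4.24 ± 0.74 and was not called (adjusted p = 0.017).

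The gene for MYB domain protein 9 (Phvul.003G284000, chromosome 3, 52175882 to 52177463, plus strand), a transcription factor, had 184, 182 and 178 counts in Ispir and 1, 3 and 0 counts in TR43477. These counts correspond to 13.5, 13.7 and 12.7 CPM against at most 0.183 CPM (adjusted p = 0.00099). With so few counts in TR43477 the size is uncertain: the ratio of the summed counts per total was 145, with a 95% counting interval from 56.4 to 535, and it was 363 without TR43477 replicate 2, which held 3 of the 4 counts. The call was lost only without Ispir replicate 2 (adjusted p = 0.011). In salt-treated roots Ispir had 0.355 to 1.74 CPM and TR43477 no count (adjusted p = 0.017), and no control leaf counted the gene.

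The gene annotated as achaete-scute homolog 3 (Phvul.001G126400, chromosome 1, 34902350 to 34904631, plus strand) is named after basic helix-loop-helix regulators known from Drosophila. It had 230, 238 and 197 CPM in Ispir and 123, 96.7 and 108 CPM in TR43477, a log2 fold change of 1.02 ± 0.14 (SE, adjusted p = 0.0087). This was the smallest change among the 14 genes, and no fit with 5 libraries called it, with adjusted p of 0.053, 0.053 and 0.021 without Ispir replicate 1, 2 and 3 and of 0.018, 0.027 and 0.012 without TR43477 replicate 1, 2 and 3. In salt-treated roots the order was the opposite, with 32.5 to 62.7 CPM in Ispir and 82.5 to 130 CPM in TR43477, a log2 fold change of -1.13 that was not called (adjusted p = 0.023).

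A gene with a C2 domain (Phvul.004G110200, chromosome 4, 38356344 to 38357318, plus strand), a domain that often binds membranes with calcium, had 33.1, 31.5 and 56.9 CPM in Ispir and 8.80, 6.90 and 4.40 CPM in TR43477. Its log2 fold change was 2.60 ± 0.34 (SE, adjusted p = 0.0067). Only the fit without TR43477 replicate 3 kept the call (0.0077), while the adjusted p was 0.028, 0.032 and 0.017 without Ispir replicate 1, 2 and 3 and 0.016 and 0.027 without TR43477 replicate 1 and 2. In salt-treated roots and in control leaves the groups overlapped. The abscisic acid receptor gene PYL5 (Phvul.008G220600), which was not called, had 237, 222 and 312 CPM in Ispir and 103, 134 and 69.5 CPM in TR43477 (adjusted p = 0.027).

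The remaining called gene codes for a peroxidase (Phvul.008G086800, chromosome 8, 8486453 to 8488533, minus strand), an enzyme that oxidises substrates with hydrogen peroxide. It had 9.53, 6.26 and 13.2 CPM in Ispir and 0.759, 1.16 and 0.355 CPM in TR43477, a log2 fold change of 3.64 ± 0.47 (SE, adjusted p = 0.0065). The call was kept without TR43477 replicate 3 (0.0068) and lost without Ispir replicate 1, 2 and 3 (0.036, 0.024 and 0.024) and TR43477 replicate 1 and 2 (0.025 and 0.013). Salt-treated roots repeated the direction, with 9.88 to 22.3 CPM in Ispir against 0.394 to 1.09 CPM in TR43477 (adjusted p = 0.00062). In control leaves the genotypes overlapped widely, at 12.6 to 68.0 CPM and 0.564 to 63.4 CPM.

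Of the called genes that the study does not list, 2 in each direction are given by identifier, 3 of them for the size of their change and Phvul.002G022200 for its abundance. Phvul.011G175900 (chromosome 11, 48669832 to 48675999, minus strand) had 1136, 1164 and 979 counts in the Ispir roots and 1, 0 and 0 counts in the TR43477 roots. The ratio of the summed counts per total was 3501, with a 95% counting interval from 628 to 138342 (adjusted p = 0.00012). It was 2188 without TR43477 replicate 2, and without replicate 1, which held the only TR43477 count, the gene was at least 406-fold higher in Ispir against the floor. Phvul.002G022200 (chromosome 2, 2370482 to 2377454, minus strand) had 838, 1294 and 735 counts against 2, 2 and 1 counts, a ratio of 612 with a counting interval from 262 to 1887 (adjusted p = 0.00025). Both genes were also called in salt-treated roots and in control leaves, where no TR43477 leaf counted either of them.

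In the other direction, Phvul.006G127400 (chromosome 6, 23526912 to 23529405, minus strand) had 0, 0 and 3 counts in Ispir and 13212, 13287 and 6975 counts in TR43477. Its mean level in TR43477 was 770 ± 256 CPM (SD, n = 3), and the ratio of summed counts per total, TR43477 over Ispir, was 10449 with a 95% counting interval from 3575 to 50671 (edgeR adjusted p = 0.00034). It was 6961 without Ispir replicate 1, and without replicate 3, which held all 3 Ispir counts, the gene was at least 3449-fold higher in TR43477 against the floor. Phvul.007G117500 (chromosome 7, 16810334 to 16812423, minus strand) had no count in Ispir control roots and 340, 412 and 426 counts in TR43477, at least 123-fold higher in TR43477 against the floor (adjusted p = 0.00054). In salt-treated roots both genes were called in the same direction. In control leaves Phvul.006G127400 had 1.34 to 6.26 CPM in TR43477 and no count in Ispir. All 4 genes were called in each of the 6 fits that left out 1 library.

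Most of the 489 genes kept their direction in root libraries that the comparison had not used. In salt-treated roots 488 of them were tested, 473 (96.9%) had the same direction, and 329 (67.4%) were called in that direction, against 5.99% of all 23898 genes called there (3.43% higher and 2.56% lower in Ispir). None was called the opposite way, and the groups were apart in the same direction for 426 genes (87.3%) and in the opposite direction for 5, while over all genes the groups were apart in either direction for 36.0%. The median absolute log2 fold change of these genes was 2.20 in salt-treated roots and 2.54 in control roots. The number of genes called in salt-treated roots was 743 without Ispir replicate 3 and 757, 937 and 632 without TR43477 replicate 1, 2 and 3, against 1431. The share with the same direction and a call was 73.0% for genes higher in Ispir and 62.4% for genes lower in Ispir.

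In control leaves, which may come from the same plants as the roots, 455 of the 489 genes were tested. Of these, 378 (83.1%) had the same direction, 51 (11.2%) were called in it and 1 was called the opposite way, against 0.535% of all 22793 genes called there (0.268% in each direction). The groups were apart in the same direction for 266 genes (58.5%) and in the opposite direction for 21, against 30.6% of all genes in either direction. The leaf libraries varied more than the root libraries, with a biological coefficient of variation of 0.515 against 0.270. Of the 122 genes called in control leaves, 0 were left without any 1 of the Ispir leaf libraries or without TR43477 replicate 1, and 1 without TR43477 replicate 2, while 101 genes were called without TR43477 replicate 3. The edgeR count of 0 stood beside 3325 to 5382 genes at an unadjusted p under 0.05 in those fits.

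**Figure D4:**
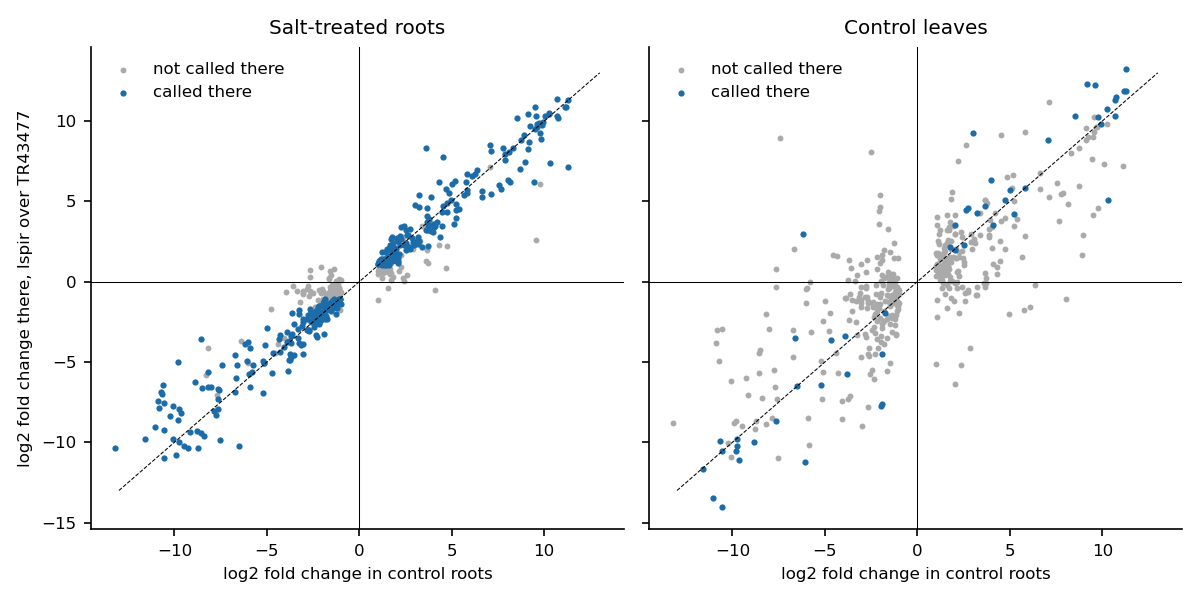
Log2 fold change (Ispir over TR43477) of the called genes of control roots, in control roots on the horizontal axis and in salt-treated roots (left, 488 genes) or control leaves (right, 455 genes) on the vertical axis. Blue points were also called there, grey points were not, and the dashed line marks equal values. In salt-treated roots 473 genes share the sign, and in control leaves 378.

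Whether the genotype difference itself changed was tested with interactions, which use the same control roots. Between root and leaf 119 of 24459 genes were called (0.487%), and 35 of the 489 were among them. The count fell to between 16 and 38 without any 1 of the control root libraries, and to 77, 28 and 66 without Ispir leaf replicate 1, 2 and 3. Between control and salt-treated roots 0 of 24210 genes were called (0.0%) by the edgeR quasi-likelihood test, although 2975 had an unadjusted p under 0.05, DESeq2 called 253 and edgeR's likelihood ratio test 251. Of the 489 genes, 139 had an unadjusted p under 0.05 for this interaction, and the lowest adjusted p among them was 0.020. Without TR43477 control root replicate 2 the interaction gave 34 called genes and without replicate 3 it gave 3.

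Called genes lay on all 11 chromosomes. The share of tested genes called was highest on chromosome 11 (3.15%, 55 of 1745) and chromosome 4 (46 of 1482), and lowest of the chromosomes on chromosome 7 (1.36%, 32 of 2347). Chromosome 6 had 2.83% and chromosome 8 2.69%. These shares are a description, since neighbouring genes are not independent.

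**Figure D5:**
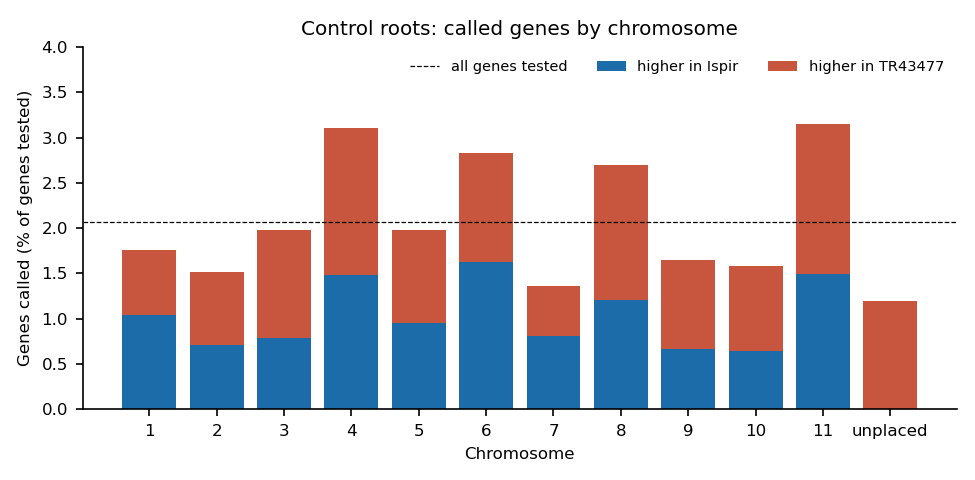
Percent of tested genes called in control roots on each chromosome of the v2.1 reference and on unplaced sequence, with the part higher in Ispir in blue and the part higher in TR43477 in red. The dashed line marks 2.07%, the share over all genes tested.

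Called genes also occurred side by side. Neighbouring tested genes called in the same direction formed 32 runs that held 72 genes, and 5 of the runs had 3 genes or more. The longest run held 6 genes on chromosome 8 (2192931 to 2210858), all lower in Ispir. Their summed level was 8.87, 10.2 and 9.94 CPM in Ispir and 78.4, 79.0 and 91.8 CPM in TR43477, and all 6 were called in the same direction in salt-treated roots. The polygalacturonase gene Phvul.008G109200 was the first of 3 neighbours on chromosome 8 (12298571 to 12356759), all higher in Ispir, which summed to 56.4, 52.5 and 35.3 CPM in Ispir and to at most 0.0759 CPM in TR43477. Phvul.006G127400 closed a run of 3 genes on chromosome 6 (23498308 to 23529405), all lower in Ispir, with summed levels of 14.2, 12.6 and 13.1 CPM against 1317, 1088 and 658 CPM. Neighbouring genes can be copies of each other, and how reads that fit several copies were counted is not given in the sources used here.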

How the data were processed

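Poly(A) RNA of control roots was sequenced as stranded read pairs. The authors used Trimmomatic for trimming, HISAT2 for alignment to genome v2.1 of P. vulgaris and SeqMonk for counting, and each of their deposited tables holds unnormalized counts of 27213 genes. How strand, multiply mapped reads and gene overlaps were handled is not given in the sources used here. The deposited p-value, FDR and log2 fold change columns hold the authors' own salt comparisons and were not used.

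Samples were grouped by their labels, and tables were joined by gene identifier. In each fit, genes with 1 count or more in total were kept, scaled with TMM and compared by the two-sided quasi-likelihood test of edgeR 4.0.16 (glmQLFit and glmQLFTest, R 4.3.3), adjusting p by Benjamini-Hochberg over all genes tested. The thresholds were the study's, an adjusted p under 0.01 and an absolute log2 fold change over 1. CPM values are TMM-scaled, except for marker sums and the limit of 3 counts for each library, which use total counts. Folds against the floor of 3 counts and ratios of summed counts use TMM-scaled totals. Library totals and sums were compared by exact permutation of the 6 libraries. DESeq2 1.42.0, other normalizations, filters and thresholds, a replicate block and leaving out each library were alternatives. The fit was tested on simulated data.

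Every called gene that the study annotates was named. Examples among annotated genes that were not called were chosen after their values were seen. Called genes with mean counts of 50 or more and groups apart were ranked by log2 fold change, and the first 2 in each direction were named. Of those higher in Ispir, 1 was the annotated lectin gene, and its place went to the most abundant gene not yet named among those with 3 counts or fewer in each TR43477 control root. Members and lists were chosen with earlier results of these data known. The reference gene table matched 0 identifiers, so names come from the study.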

Additional observations from a re-analysis of the deposited data

Results flagged for a closer look

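The zinc transporter gene Phvul.002G100001 differed between the genotypes in control roots but not detectably in control leaves, and the interaction of genotype and tissue was called at -3.80 on the log2 scale. Over all genes, 119 had such a called interaction. The other 2 genes stood in opposite order in other libraries, with every library of Ispir on 1 side of every library of TR43477. The extensin-like gene Phvul.009G211000, lower in Ispir control roots, had a log2 fold change of 0.91 in salt-treated roots and of 3.56 in control leaves. Its interactions with salt (adjusted p = 0.027) and tissue (adjusted p = 0.012) did not pass 0.01. The achaete-scute homolog gene Phvul.001G126400, higher in Ispir control roots, had a log2 fold change of -1.13 in salt-treated roots, and its interaction with salt did not pass either (adjusted p = 0.032). These genes were named because they were called in control roots, and the interactions use the same control roots.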

How the results depend on the processing

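The direction of the 18 named genes was the same under every alternative run, and 5 of them were called in all 6 fits that left out 1 library. All 18 were called with DESeq2, with its size factors, with the likelihood ratio test and at 0.05, 17 with all 12 root libraries (not Phvul.001G126400), with filterByExpr and with upper-quartile scaling (in both not the lectin gene Phvul.004G158100), and 10 with glmTreat. Counts of called genes moved with the test and the threshold. In control roots the count was 1377 at an adjusted p under 0.05, 1073 with all 12 root libraries in 1 fit, 1552 with DESeq2, 185 with glmTreat and 1833 with the likelihood ratio test, against 489. With another normalization or filter it was 479 to 504. In salt-treated roots it was 2550 at 0.05, 2343 with DESeq2, 569 with glmTreat and 2795 with the likelihood ratio test, against 1431. In control leaves the same settings gave 1150, 2191, 44 and 1888, and all 12 leaf libraries gave 1754, against 122. The interaction with tissue had 712, 1142, 32 and 1050, against 119. The interaction with salt had 62 at 0.05, 1 with DESeq2 size factors, 253 with DESeq2 and 251 with the likelihood ratio test, against 0. The cause was not tested. Leaving out 1 library gave 52 to 663 in control roots, 632 to 1637 in salt-treated roots, 0 to 101 in control leaves, 16 to 165 for the interaction with tissue and 0 to 34 for the interaction with salt.

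With the replicate number as a block, 25 genes were called in control roots, 5 of the 18 named genes among them, 0 in control leaves (4997 at an unadjusted p under 0.05) and 37 for the interaction with tissue. Deviations of same-numbered control root libraries from their group means correlated at 0.012, 0.039 and 0.031, so the numbers were not taken to pair plants.

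With 3 libraries a group, differences near the threshold were called or missed depending on single libraries, and genes with few counts were called only at large folds. Genotype cannot be told apart from plant age or from differences between a line and the reference.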
